A study of Mus musculus with 2 samples.

Results

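The genes described here are those whose symbols name core DNA repair factors of the mouse. They were picked by symbol and cover the Fanconi anemia (Fanc), Rad50 to Rad54, Brca, Xrcc, Ercc and mismatch repair families together with single genes such as Atm, Atr, Prkdc, Parp1 and Ung. The rule found 164 protein-coding transcripts of 60 genes among the 121429 transcripts of the table. Of these, 159 transcripts and 58 genes had a mean exon value of the libraries above 1 and all exon and intron values above 0, and 13022 genes of the whole table passed the same filter. The genes that did not pass were Fancf, a gene of 1 exon that has no intron value, and Rad51ap2.

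Cells were wild-type (WT) DTCM23/49 XY mouse embryonic stem cells (mESC), depleted of feeder cells and grown on gelatin in serum with leukemia inhibitory factor, which keeps such cells pluripotent. They received 200 µM 4-thiouridine (4sU), a uridine analogue that is built into RNA as it is made, for 10 min. RNA that carried 4sU was biotinylated and pulled down, and it was sequenced as the labeled library. The RNA left in the supernatant was sequenced as the unlabeled library, which the labels call preexisting in one place and total in another. Both came from biological replicate 1, so there was 1 library per pool, no replicate error and no test. Every difference below compares these libraries and has no replicate check. The exon and intron value of a gene is the sum over its protein-coding transcripts of the authors' length-normalised abundance, on a scale where each library sums to 10 times the total of TPM. Read depth is unknown, so no counting error could be given. Since each library was scaled to its own total, a log2 ratio of the labeled to the unlabeled exon value was read against its median over all 13022 genes, which was -0.29. In such bulk values a gene used by fewer cells and a gene with less RNA per cell cannot be told apart.

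All 10 embryonic stem cell markers were above 0, with a summed exon value of 10546 in the labeled and 13121 in the unlabeled library. The 8 fibroblast markers summed to 9.35 and 22.8, with Col3a1, Postn and Lum at 0 in both libraries. The 8 markers of differentiated cells summed to 79.8 and 80.8, most of it Pax6 at 68.7 and 70.5, and Gata6, Sox17 and Foxa2 were at 0. Introns took 15.4% of the labeled and 6.26% of the unlabeled library.

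DNA repair is organised by the kind of lesion. Base excision repair removes single damaged bases and mends single-strand breaks, nucleotide excision repair cuts out bulky lesions, and mismatch repair corrects errors left by replication. Double-strand breaks are sensed by the Mre11-Rad50-Nbs1 complex and the kinases Atm and Atr, and are closed either by end joining or by homologous recombination. The Fanconi anemia pathway unhooks crosslinks between the strands and hands the broken ends to homologous recombination. Embryonic stem cells divide fast, spend much of the cycle in S phase and rely strongly on mismatch repair and homologous recombination. A short 4sU pulse enriches for RNA made in the last minutes, so an mRNA that is replaced quickly takes a larger share of the labeled pool than of the unlabeled pool, and unspliced introns are more abundant in the labeled pool.

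Many repair genes start close to another gene that is read in the opposite direction, so RefSeq promoter windows of 5 genes of such head-to-head pairs are shown. Windows of Parp1 and Ercc1, which had the lowest and the highest labeled to unlabeled ratio of the repair genes, follow. Each window runs 5′ to 3′ on the strand of the gene, from 250 bases before to 50 bases after the start in RefSeq (GRCm38.p6). Capitals mark every match, on either strand, to the 9 motifs listed after the sequences. Neighbouring matches can run together.
Brca1 (chr11:101551906-101552205, minus strand): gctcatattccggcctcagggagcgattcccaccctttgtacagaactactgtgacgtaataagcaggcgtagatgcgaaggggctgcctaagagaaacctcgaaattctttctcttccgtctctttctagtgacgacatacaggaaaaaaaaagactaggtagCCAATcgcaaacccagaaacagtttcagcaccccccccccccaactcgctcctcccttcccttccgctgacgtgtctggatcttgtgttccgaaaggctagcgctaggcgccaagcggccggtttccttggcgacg
Palb2 (chr7:122132897-122133196, minus strand): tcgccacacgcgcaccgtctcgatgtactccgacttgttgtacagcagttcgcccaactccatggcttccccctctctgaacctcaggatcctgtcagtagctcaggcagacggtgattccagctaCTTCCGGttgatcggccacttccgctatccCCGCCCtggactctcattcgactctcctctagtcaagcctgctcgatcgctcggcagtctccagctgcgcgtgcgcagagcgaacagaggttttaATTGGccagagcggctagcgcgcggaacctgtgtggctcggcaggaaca
Parp2 (chr14:50807666-50807965, plus strand): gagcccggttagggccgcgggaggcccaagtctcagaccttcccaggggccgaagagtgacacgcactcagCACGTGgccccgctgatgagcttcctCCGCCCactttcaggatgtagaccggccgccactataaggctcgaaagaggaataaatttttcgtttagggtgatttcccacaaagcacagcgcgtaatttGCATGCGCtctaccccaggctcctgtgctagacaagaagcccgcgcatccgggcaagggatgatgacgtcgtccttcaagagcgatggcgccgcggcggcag
Ercc8 (chr13:108158488-108158787, plus strand): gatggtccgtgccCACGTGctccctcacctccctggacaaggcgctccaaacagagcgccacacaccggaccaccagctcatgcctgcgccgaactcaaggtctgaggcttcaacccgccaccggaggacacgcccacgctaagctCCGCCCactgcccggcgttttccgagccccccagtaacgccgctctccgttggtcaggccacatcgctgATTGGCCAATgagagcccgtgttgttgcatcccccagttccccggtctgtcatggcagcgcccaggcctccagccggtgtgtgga
Xrcc4 (chr13:90089559-90089858, minus strand): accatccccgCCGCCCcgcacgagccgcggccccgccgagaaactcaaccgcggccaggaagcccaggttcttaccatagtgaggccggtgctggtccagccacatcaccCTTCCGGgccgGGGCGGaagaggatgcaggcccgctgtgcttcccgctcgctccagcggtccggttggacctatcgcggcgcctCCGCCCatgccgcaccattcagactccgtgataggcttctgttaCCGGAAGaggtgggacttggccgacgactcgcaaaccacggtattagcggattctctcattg
Parp1 (chr1:180568641-180568940, plus strand): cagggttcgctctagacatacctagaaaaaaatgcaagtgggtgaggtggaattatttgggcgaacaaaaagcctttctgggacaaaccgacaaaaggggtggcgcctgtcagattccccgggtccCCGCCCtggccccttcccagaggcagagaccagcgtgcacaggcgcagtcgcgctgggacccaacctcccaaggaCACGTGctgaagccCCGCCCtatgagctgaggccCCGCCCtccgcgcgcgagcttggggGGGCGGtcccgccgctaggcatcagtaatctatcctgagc
Ercc1 (chr7:19344821-19345120, plus strand): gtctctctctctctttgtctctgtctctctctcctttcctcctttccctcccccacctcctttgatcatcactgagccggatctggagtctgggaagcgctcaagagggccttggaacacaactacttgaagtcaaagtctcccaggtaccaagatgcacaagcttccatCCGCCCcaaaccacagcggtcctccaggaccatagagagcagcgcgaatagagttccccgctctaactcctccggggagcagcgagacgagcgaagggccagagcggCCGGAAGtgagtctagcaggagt

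RefSeq promoters were matched for 46 of the 58 genes, 42 of them within 100 bases of the start of an annotated coding transcript, and for 10242 of all tested genes. The motifs were the CCAAT box (CCAAT), the E2F motif (TTTGGCGC, TTTCGCGC, TTCCCGCC or TTGGCGGG, which can overlap each other), the CHR (TTTGAA), the ETS motif (CCGGAAG), the GC box (GGGCGG), the NRF1 core (GCATGCGC), the E-box (CACGTG), the CRE (TGACGTCA) and the TATA box (TATAAA), each searched on both strands. A CCAAT box lay in the window of 27 of the 46 repair genes, or 58.7%, and of 38.7% of all promoters. The E2F motif, bound by factors that drive S phase genes, was found in 15.2% of the repair genes and in 6.79% of all promoters, and the NRF1 core in 17.4% and 5.40%. The ETS motif was found in 23.9% and 17.9%, the GC box in 67.4% and 62.6%, the E-box in 15.2% and 9.85%, the TATA box in 6.52% and 7.11%, the CRE in 2.17% and 3.06%, and the CHR in 4.35% and 12.4%. Median GC content was 59.8% in the repair genes and 60.7% in all. These are counts of letters in a fixed window, and whether the sites are bound was not measured.

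In the windows shown, Ercc8 held a pair of CCAAT matches on opposite strands, at positions -35 and -30 from its start. Xrcc4 held ETS matches at -140 and -12, Palb2 a CCAAT match at position 2 and an ETS match at -124, and Parp2 the NRF1 core at -52. Brca1 held a single match, a CCAAT box at -86. The window of Parp1 held 4 GC boxes and an E-box, and that of Ercc1 a GC box at -80 and an ETS match at position 28. The RefSeq start used for Ercc1 is not that of its most highly expressed transcript, ENSMUST00000003645. That transcript starts at position 19344778, upstream of the window, so the window lies within it.

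Most repair genes had a labeled to unlabeled ratio within 2-fold of the typical gene. The median log2 ratio of the 58 genes was -0.33 (quartiles -0.89 and 0.33), beside -0.29 over all tested genes, and 29 of the 58 lay below that median and 29 above. The ratio was at least 2-fold above the median of all genes in 8 repair genes, namely Ercc1, Xrcc2, Ercc8, Ercc4, Fance, Xrcc4, Rad51ap1 and Rad51b, where 21.1% of all genes were. It was at least 2-fold below in Parp1 alone, where 13.9% of all genes were. With leakage of unlabeled RNA subtracted there were 10 above and 5 below, and with centring on the mean over all genes 7 and 3. The matching shares of all genes were not computed under these settings, so the changed counts were not read further. Rad51b was no longer among those above when centred on the mean, nor was Rad51ap1 when transcripts of all biotypes were summed. The difference between the medians of the repair genes and of all genes, -0.04, changed sign when only genes with a mean exon value above 10 were kept (0.05) and when each gene was represented by its most highly expressed transcript (0.00). Repair mRNAs were more abundant than the typical gene: their median mean exon value was 101.3, beside 42.3 over all genes, and 45 of 58 lay above the median level. With all genes ranked into 4 equal groups of level, 26 repair genes were in the highest group.

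**Figure D1:**
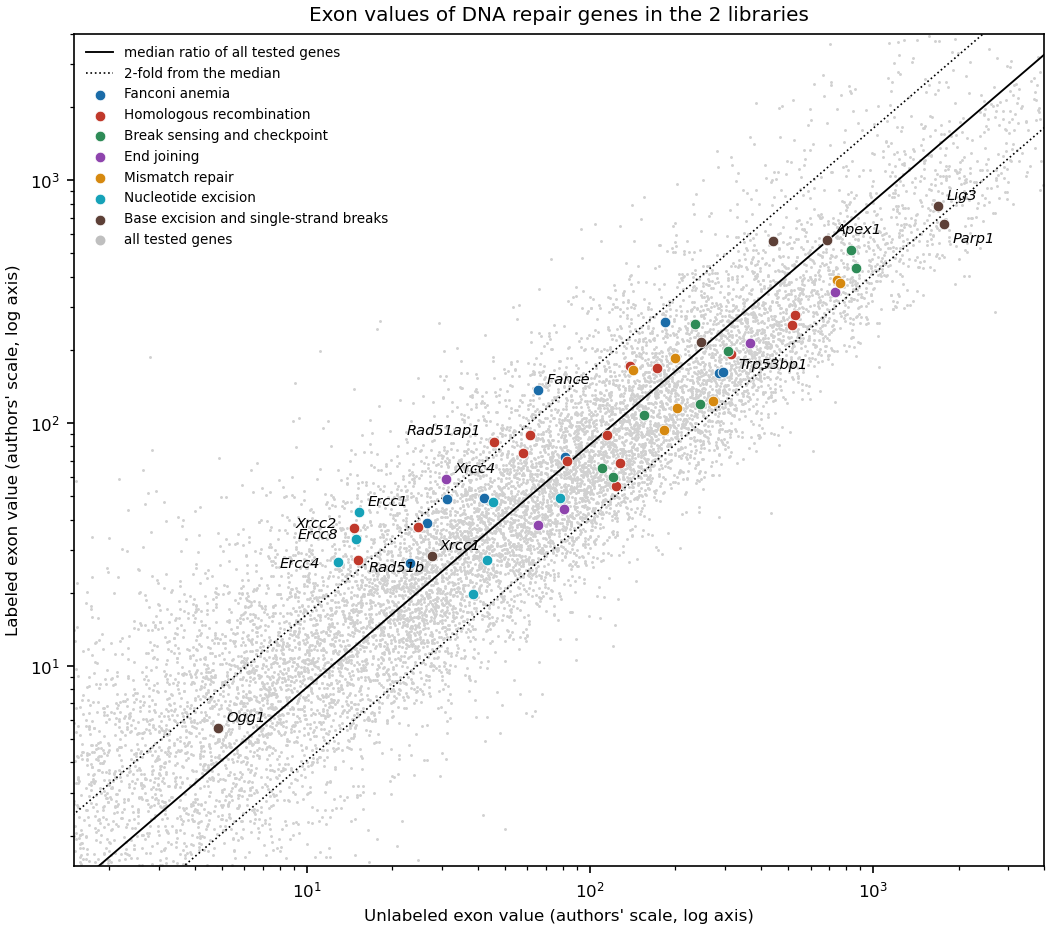
Exon value of each gene in the unlabeled library (x) and in the labeled library (y), both on log axes in the authors' unit, with all 13022 tested genes in grey (axes cropped around the repair genes) and the 58 repair genes coloured by role. The solid line is the median ratio of all genes and the dotted lines lie 2-fold from it; Ercc1, Xrcc2, Ercc8 and Ercc4 sit above the upper line at low levels, and Parp1 sits below the lower line at a high level.

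Base excision and single-strand break repair held both the most and the least abundant repair genes. Parp1, the poly(ADP-ribose) polymerase that senses single-strand breaks, had an exon value of 659.5 in the labeled and 1779.6 in the unlabeled library, a log2 ratio of -1.43 and the lowest of the 58. Lig3, the ligase that seals such breaks in the nucleus and in mitochondria, had 782 and 1695, with a log2 ratio of -1.12. Both were higher in the unlabeled pool, 2.70-fold in Parp1 and 2.17-fold in Lig3, though Lig3 lay within 2-fold of the median of all genes. Together they were the only repair genes with a mean exon value above 1000. Lig3 had 9 passing transcripts, and its longest transcript overlaps Rffl on the opposite strand over 1826 bases. Ung, the uracil DNA glycosylase, stood the other way, at 562 labeled and 443 unlabeled with a log2 ratio of 0.34. Apex1, the main abasic site endonuclease, was close to the typical gene at 564 and 689 (log2 ratio -0.29), and so was Parp2, a second poly(ADP-ribose) polymerase, at 216 and 247 (-0.19). Xrcc1, the scaffold that binds Lig3, had only 28.3 and 27.5 (0.04), so that its unlabeled value was 61.6-fold below that of its partner while the labeled values differed 27.7-fold. Ogg1, the glycosylase for oxidised guanine, was the least abundant gene that passed, at 5.54 and 4.84.

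In mismatch repair, 5 of 7 genes lay below the median of all genes, and the list median was -0.93. Msh6, which takes part in the recognition of base mismatches, had 376 labeled and 762 unlabeled (-1.02) and was the most abundant of the list. Msh3, which takes part in the recognition of larger loops, had 124 and 272, with the lowest log2 ratio of the list at -1.14. Mlh3, known for its part in meiosis, had 93.9 and 181 (-0.95). Pms2, which carries the nicking activity of the pathway, had 165 and 141 (0.22), the highest of the list, and Pms1 had 185 and 199.9 (-0.11). Relative to the median of all genes, Pms1 was at 0.18 as a sum and at -0.65 by its most highly expressed transcript. Pms2 overlaps Gm42421 on the same strand over 5794 bases, and reads from the shared sequence cannot be assigned with certainty.

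Break sensing and checkpoint genes were mostly richer in the unlabeled pool, 7 of 8 of them below the median of all genes, with a list median of -0.73. The apical kinases were near each other: Atm, which answers to double-strand breaks, had 119 labeled and 244 unlabeled (-1.03), and Atr, which answers to single-stranded DNA at stalled forks, had 59.8 and 120.1 (-1.01). Chek1, the effector kinase of Atr, was the most abundant of the list at 514 and 836 (-0.70), and Chek2, that of Atm, had 108 and 154 (-0.51). Trp53bp1, which steers breaks toward end joining, had 199 and 306 (-0.62). In the complex that binds broken ends, Rad50, the tethering ATPase, had 433 and 870.1 (-1.01) and Nbn, its regulatory subunit, had 65.2 and 110.4 (-0.76). Mre11a, the nuclease of that complex, had 255 and 234 (0.12) and was the 1 gene of the list above the median of all genes.

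End joining showed the same split, with 4 of 5 genes between -1.08 and -0.77 and Xrcc4 apart at 0.93. Of the Ku subunits that grasp broken ends, Xrcc5 (Ku80) had 345 labeled and 729.7 unlabeled (-1.08), and Xrcc6 (Ku70) had 213 and 368 (-0.79). Prkdc, the kinase that Ku recruits, had 44.0 and 80.7 (-0.87). Lig4, the ligase, had 38.1 and 65.2 (-0.77). Xrcc4, the obligate partner that stabilises Lig4, had 58.8 and 30.9, so that Lig4 was 2.11-fold above Xrcc4 in the unlabeled library and Xrcc4 was 1.54-fold above Lig4 in the labeled library. Of the 15 complexes examined, only the 4 subunits of the BCDX2 complex spanned a wider range of log2 ratios.

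Homologous recombination genes spread evenly across the scale, from Bard1 at -1.16 to Xrcc2 at 1.34, with a list median of -0.03. Brca1, the ubiquitin ligase that promotes resection, had 279 labeled and 528 unlabeled (-0.92), and its partner Bard1 had 55.1 and 123 (-1.16). Brca2, a tumour suppressor that acts after resection, had 253 and 518 (-1.03). Palb2, which bridges Brca1 and Brca2, was on the other side at 171 and 138 (0.31), and its ratio exceeded that of Brca2 2.53-fold. The subunits of the BCDX2 and CX3 complexes, which assist strand invasion, differed widely: Xrcc2 had 37.0 and 14.6 (1.34), Rad51b had 27.4 and 15.1 (0.86), Xrcc3 had 37.4 and 24.7 (0.60), Rad51d had 75.0 and 57.6 (0.38) and Rad51c had 88.8 and 114.8 (-0.37). Rad51ap1, a cofactor that stimulates strand exchange, had 83.7 and 45.6 (0.87). Rad51ap2, a gene used in the germ line, had 0.66 and 0.52 and was below the filter. Rad54l2, which shares the symbol family but is known as a regulator of nuclear receptors, had 68.5 and 127 (-0.89).

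**Figure D2:**
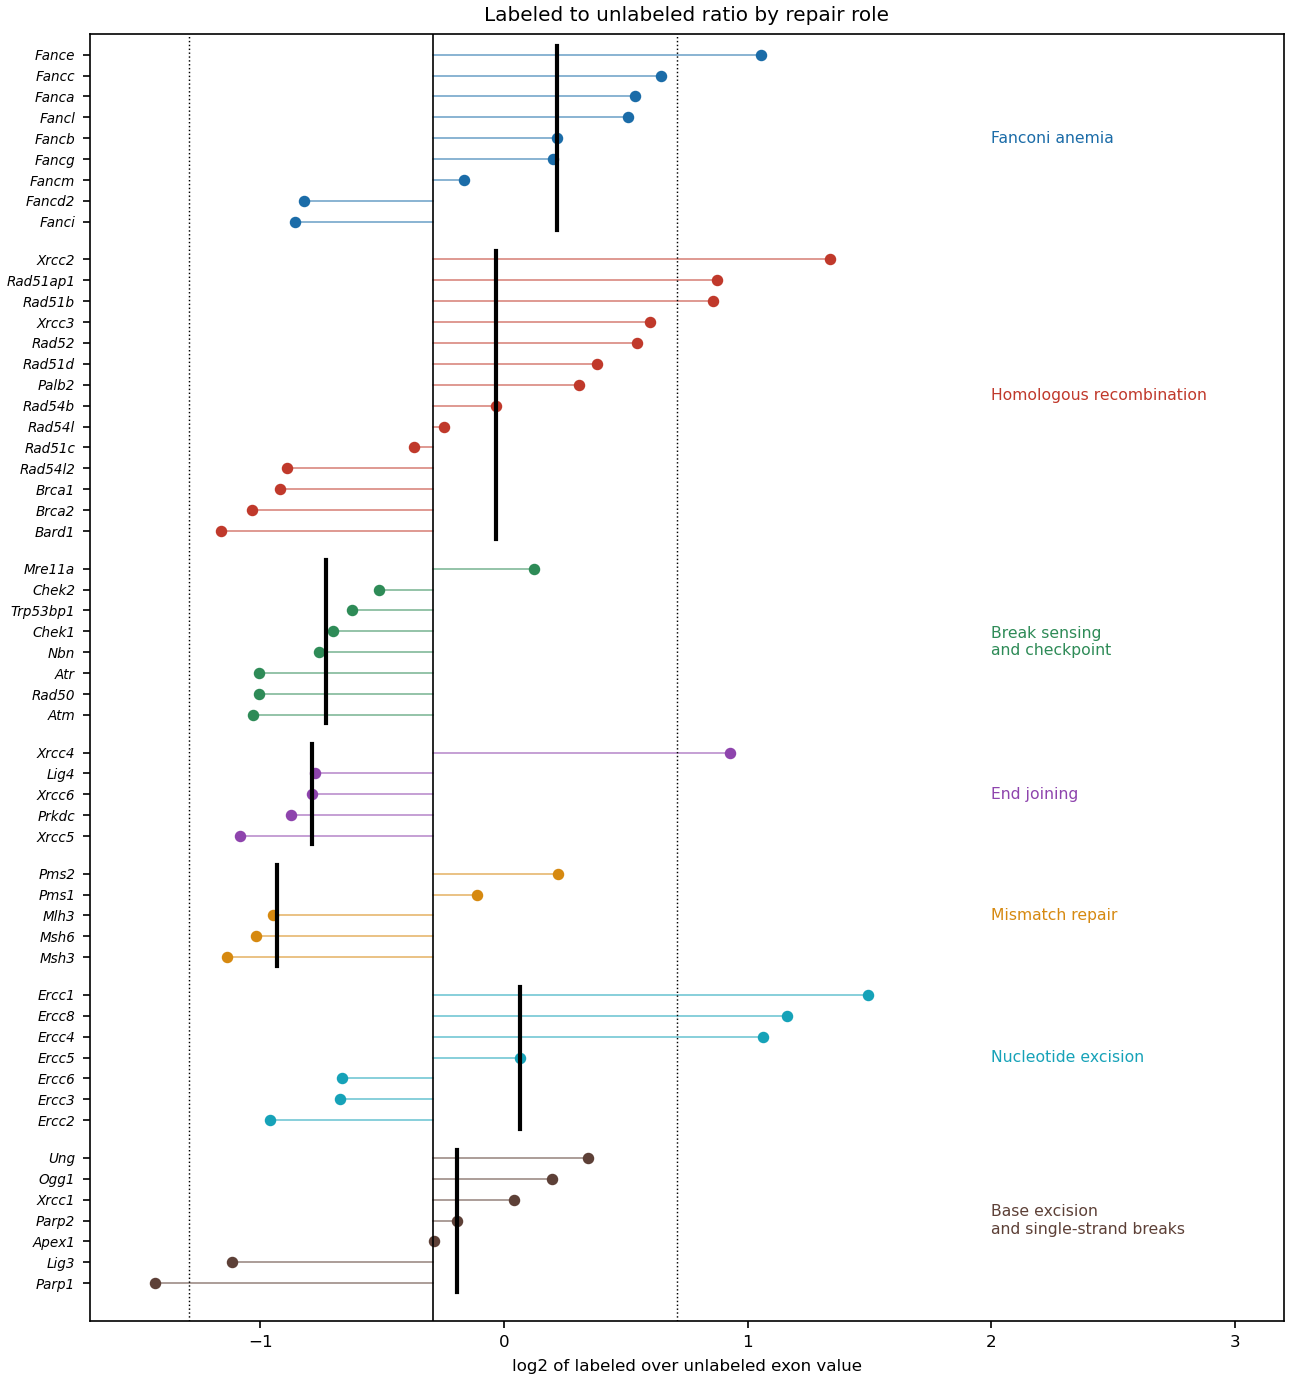
Log2 of the labeled over the unlabeled exon value (x) of 55 of the 58 repair genes, grouped by role and ordered within a role. The thin solid line is the median of all tested genes (-0.29), the dotted lines lie 2-fold from it, and the short thick bars are the medians of each role, which run from -0.93 in mismatch repair to 0.22 in the Fanconi anemia genes.

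Of the 9 Fanconi anemia genes tested, 7 lay above the median of all genes and the list median was 0.22. Fanci and Fancd2, the pair that is ubiquitinated at a crosslink, were the most abundant and had the lowest ratios: Fanci had 163 labeled and 295 unlabeled (-0.86), and Fancd2 had 161 and 285 (-0.82), so that they differed 1.01-fold in the labeled and 1.04-fold in the unlabeled library. Members of the core complex that places this mark lay higher. Fance, which contacts Fancd2, had 136 and 65.6 (1.05), Fancc, its neighbour in the complex, had 48.8 and 31.2 (0.64), Fanca had 38.6 and 26.6 (0.54, or 0.83 above the median of all genes and 0.21 above it with all biotypes) and Fancl, the ubiquitin ligase subunit, had 261 and 183 (0.51). Fancb, on the X chromosome, had 48.8 and 42.0 (0.22), Fancg had 26.4 and 23.0 (0.20), and Fancm, the helicase-like anchor, had 72.7 and 81.4 (-0.16). Fancf, at 28.1 labeled and 24.98 unlabeled, could not be tested for want of an intron. Fanca and Fancc lie across expressed coding genes of the opposite strand, over 50277 bases with Gm20388 and 21385 bases with 2010111I01Rik, and whether the counting used strand is not given in the sources used here.

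Nucleotide excision genes were the least abundant, with a median mean exon value of 29.1 and none in the highest of the 4 groups of level. The nuclease partners Ercc1 and Ercc4 (XPF), which cut on the 5′ side of a lesion, were both high in the labeled pool. Ercc1, on chromosome 7, had 42.8 labeled and 15.2 unlabeled, a log2 ratio of 1.49 and the highest of the 58, and Ercc4 had 26.8 and 12.9 (1.06). Ercc8 (CSA), which acts where RNA polymerase stalls at a lesion, had 33.2 and 14.8 (1.16), whereas Ercc6 (CSB), which acts beside it, had 27.2 and 43.1 (-0.67). The helicases of TFIIH lay below the median of all genes, with Ercc2 at 19.8 and 38.4 (-0.96) and Ercc3 at 49.2 and 78.3 (-0.67). Ercc5, the nuclease of the 3′ side, had 47.2 and 45.1 (0.06). 

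Across all 15 known complexes and pairs examined, which were chosen with earlier values in view, partners ranged from near identity to a 3.27-fold difference in ratio. Fanci and Fancd2 differed by 0.04 on the log2 scale, and Brca1 and Bard1 by 0.24. The Ku subunits and the TFIIH helicases each differed by 0.29, and Ercc1 and Ercc4 by 0.43. The subunits of the Mre11-Rad50-Nbs1 complex differed by up to 1.13, Brca2 and Palb2 by 1.34, Xrcc4 and Lig4 by 1.70 and the paralogs Rad51b, Rad51c, Rad51d and Xrcc2 of the BCDX2 complex by up to 1.71. Without replicates it cannot be said which of these differences exceed the error of the libraries.

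The ratio was lower in repair genes of higher level and with longer transcripts. Spearman's correlation of the log2 ratio with the mean exon value was -0.60 across the 58 genes and -0.29 across all 13022, with exon length of the longest transcript -0.59 and -0.36, and with the number of exons -0.56 and -0.24. With unspliced length it was -0.28 and -0.29, and with uridine content -0.06 and -0.15. These are descriptions across genes measured in the same libraries, the genes are not independent replicates, and the ratio and the level are made from the same values. Genes were also split into 3 groups of equal size by the exon length of all tested genes. The 13 repair genes of up to 2294 bases had a median log2 ratio of 0.55 (0.27 over all genes of that length), the 25 from 2295 to 4015 bases -0.25 (-0.39), and the 20 longer genes -0.88 (-0.71). In the 4 groups of level, 12 repair genes of the second lowest group had a median of 0.62 beside -0.12 for all genes of that group, 19 of the next had -0.37 beside -0.44, and 26 of the highest had -0.80 beside -0.71. Repair genes were also longer and had more exons, with a median of 3397 exon bases and 15 exons, beside 3069 and 9 over all genes.

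**Figure D3:**
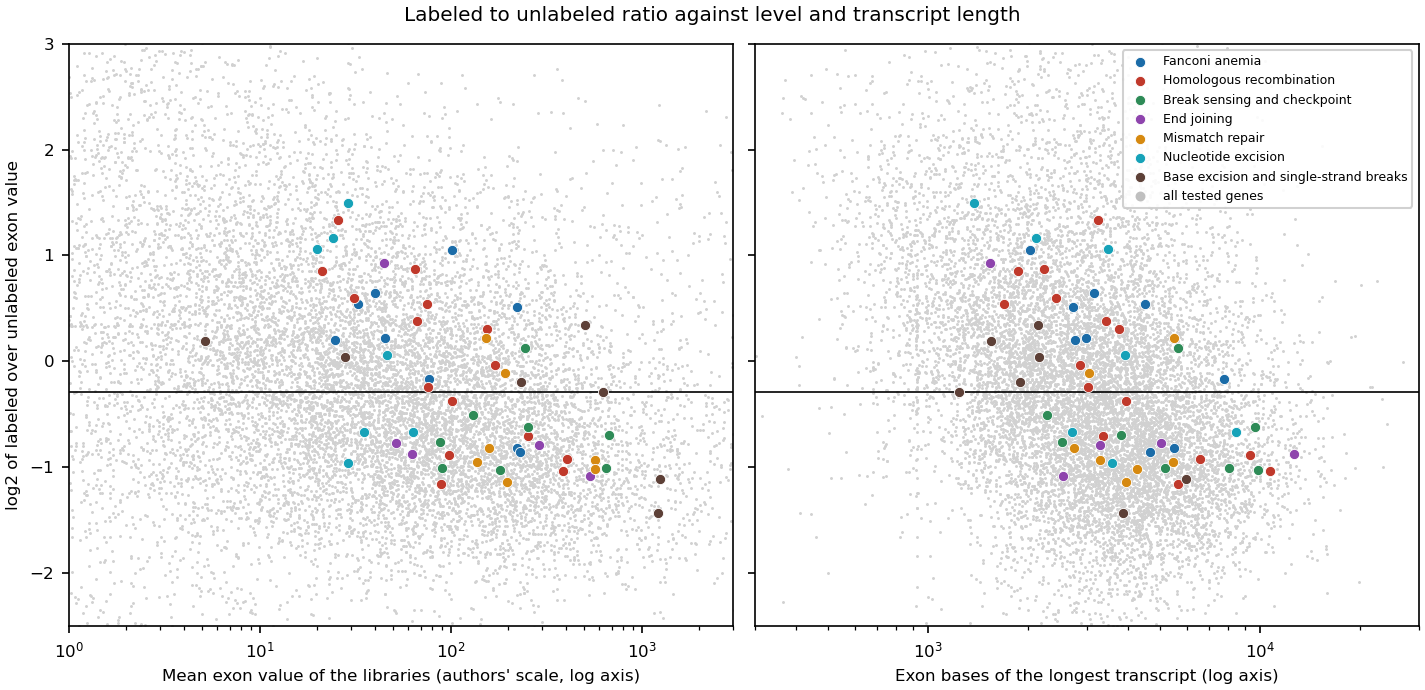
Log2 of the labeled over the unlabeled exon value (y) against the mean exon value of the libraries (left, log axis, authors' unit) and against the exon bases of the longest coding transcript (right, log axis), for all tested genes in grey (axes cropped around the repair genes) and the 58 repair genes in colour. The horizontal line is the median of all genes; repair genes run from upper left to lower right in both panels, with Spearman's correlations of -0.60 and -0.59.

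Introns of the repair genes were read far more in the labeled than in the unlabeled pool. The median intron to exon ratio of the 58 genes was 0.436 in the labeled and 0.104 in the unlabeled library, beside 0.576 and 0.122 over all genes. Across all genes the labeled ratio was lower at higher level (Spearman's correlation -0.56). In the second lowest, next and highest of the 4 groups of level, the labeled medians of the repair genes were 0.6395, 0.399 and 0.393. Those of all genes were 0.733, 0.5035 and 0.299. The unlabeled medians were 0.371, 0.102 and 0.0648, beside 0.183, 0.0914 and 0.0437 over all genes. A labeled ratio of 1 or more, meaning at least as much intron as exon signal per length, was reached by 5 repair genes, Fancc (2.37), Xrcc2 (2.28), Ercc8 (1.76), Ercc4 (1.33) and Ogg1 (1.10), where 28.7% of all genes were at 1 or more. The value of Fancc is a sum over 10 transcripts, of which 7 passed the filter, and its leading transcript had 1.03. Of these 5, Ogg1 was the least abundant gene of the set, and Fancc, the most abundant of them, had a mean exon value of 40.0. The lowest labeled ratios belonged to Parp2 (0.0875), Apex1 (0.103), Xrcc5 (0.108), Ung (0.110) and Rad50 (0.125), genes whose mean exon values ran from 232 to 652.

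The ratio was lower in the unlabeled than in the labeled library by very different factors. It was 21.9-fold lower in Nbn (0.394 labeled, 0.0180 unlabeled), 14.5-fold in Msh3 (0.472 and 0.0326), 12.4-fold in Atm (0.374 and 0.0301) and 11.1-fold in Atr (0.399 and 0.0358). These factors rested on low unlabeled intron values, 1.99 in Nbn, 8.86 in Msh3, 7.34 in Atm and 4.3 in Atr, at unknown depth. In Parp1 the ratio was 2.60-fold lower (0.373 and 0.143), in Lig3 2.54-fold (0.288 and 0.113) and in Brca1 2.68-fold (0.557 and 0.208), but these sums rested on 1 short transcript model in each gene. The unlabeled intron value was 240.9 of 255.07 in ENSMUST00000195560 of Parp1, 156.6 of 192.08 in ENSMUST00000172837 of Lig3 and 93.7 of 109.71 in ENSMUST00000191198 of Brca1. Their leading transcripts had far lower ratios: 0.0663 labeled and 0.0053 unlabeled in Parp1, 0.161 and 0.0218 in Lig3, and 0.213 and 0.0270 in Brca1. In Fance it was 1.09-fold lower (0.297 and 0.273) and in Ercc1 1.17-fold (0.451 and 0.385), close to no difference. With the most highly expressed transcript of each gene the median unlabeled ratio of the repair genes was 0.0668 in place of 0.104.

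**Figure D4:**
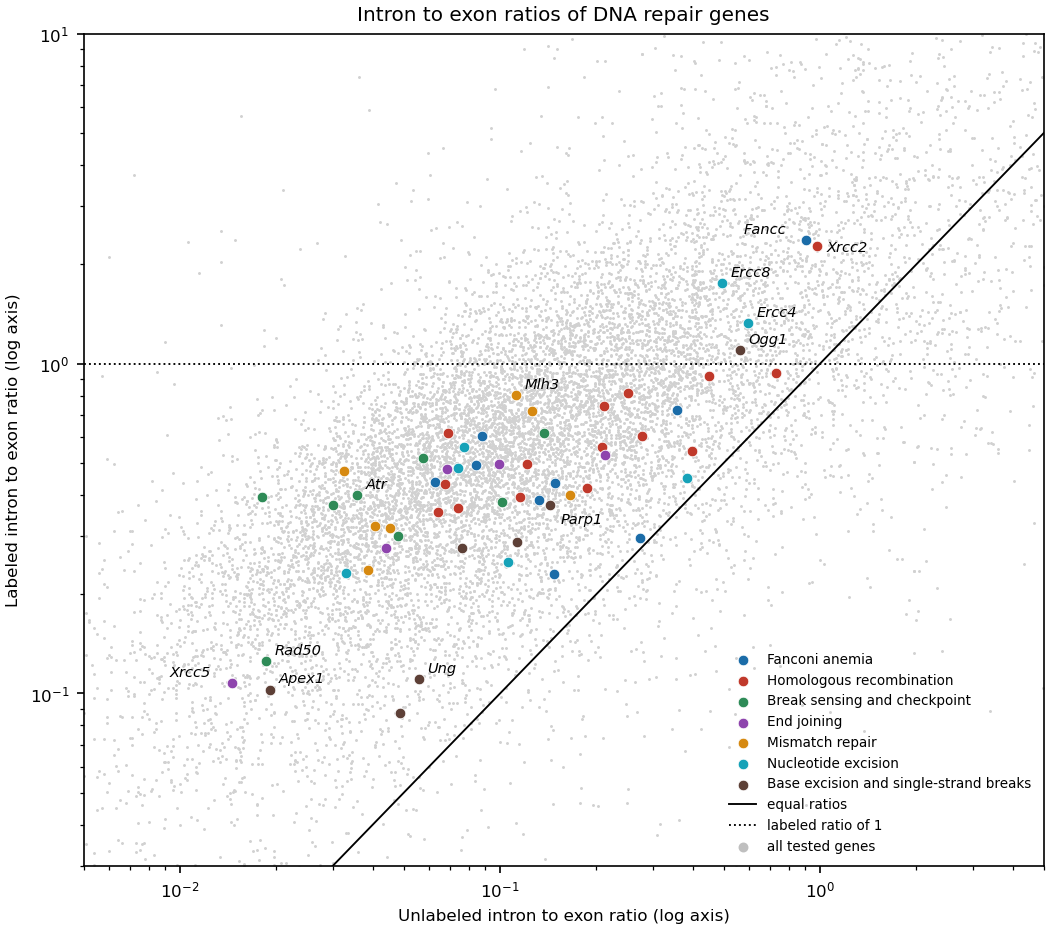
Intron to exon ratio in the unlabeled (x) and labeled (y) library, both on log axes, for all tested genes in grey (axes cropped around the repair genes) and the 58 repair genes coloured by role. The solid line marks equal ratios and the dotted line a labeled ratio of 1; the 5 repair genes above it are Fancc, Xrcc2, Ercc8, Ercc4 and Ogg1.

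The study's model of synthesis, processing and degradation has no solution where the labeled ratio is 1 or more or does not exceed the unlabeled ratio. This held for 32 of the 159 repair transcripts, or 20.1% (95% Wilson interval 14.6 to 27.0%, over transcripts only), beside 33.3% of all 31386 transcripts. These shares were not compared within groups of level. Of the 32, 27 had a labeled ratio of 1 or more and 5 lay below the diagonal. All 7 passing transcripts of Fancc were among them, both of Ercc8 and of Xrcc2, the single ones of Ercc4 and Ogg1, and 3 of 5 of Fance. The share of repair transcripts was 13.1% when only transcripts with a mean exon value above 10 were kept and 10.3% with the most highly expressed transcript of each gene. The share of all transcripts was not computed under these restrictions, so these values are not to be set beside 33.3%. A degradation half-life could be computed from the summed values of 53 genes and had a median of 12.4 min, beside 18.8 min over 8573 genes of the whole table. With leakage subtracted the median of the repair genes was 18.6 min, and the value over all genes was not computed. For 30 of the 53, beside 4909 of the 8573, the model had no exact solution and the nearest fit was used. Taking the second library for total RNA, as one of its labels has it, gave a median of 38.8 min, beside 43.9 min over all genes. Atm had 4.66 min with the first reading and 89.2 min with the second. No order of half-lives among the repair genes was read.

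A coding gene on the opposite strand started within 1000 bases of a start of 22 of the 58 repair genes, or 37.9%, beside 2045 of all 13022 genes, or 15.7%. Of these 22 head-to-head neighbours, 13 lay on the same side of the median of all genes as the repair gene. The same count was not made for head-to-head genes of the whole table, so nothing particular to repair genes was read from it. Brca1 and Nbr1, an autophagy receptor, start 270 bases apart and had log2 ratios of -0.92 and -0.97. Atm and Npat, a regulator of histone gene transcription, start 439 bases apart and had -1.03 and -0.99. Prkdc and Mcm4, a subunit of the replicative helicase, start 489 bases apart and had -0.87 and -1.32, Xrcc4 and Tmem167 41 bases apart with 0.93 and 0.52, and Ercc8 and Ndufaf2 115 bases apart with 1.16 and 0.42.

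Other pairs had unlike ratios. Apex1 and Osgep start 75 bases apart and had -0.29 and 1.76, and Parp2 and Ccnb1ip1 start 109 bases apart with -0.19 and 1.34. Both pairs still count among the 13 on the same side, since Apex1 and Parp2 lay 0.0039 and 0.0998 above the median of all genes. With the partner lower instead, Palb2 had 0.31 beside -0.82 for Dctn5, 95 bases away, and Pms1 had -0.11 beside -1.68 for Ormdl1, 77 bases away. The sum for Pms1 includes short models, and its most highly expressed transcript, ENSMUST00000135246, was at -0.997. Transcripts of 29 repair genes, the untested Fancf among them, overlap an expressed gene of the opposite strand, which bears on such pairs where the exons meet. The same count was not made over all genes, and the part of that overlap in these values was not tested.

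**Figure D5:**
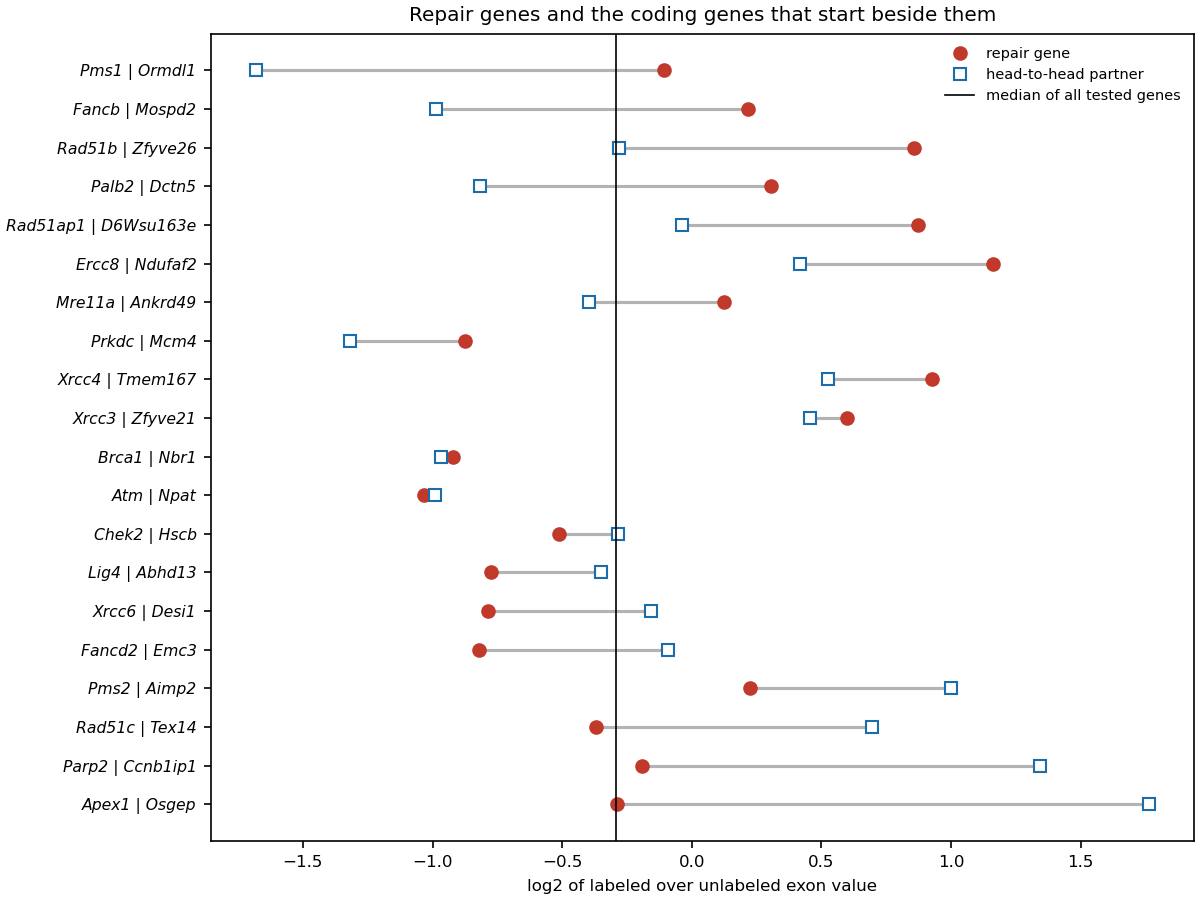
Log2 of the labeled over the unlabeled exon value (x) of 20 of the 22 repair genes (filled circles) and of the coding gene that starts within 1000 bases on the opposite strand (open squares), joined by a line and ordered by the difference. Brca1 with Nbr1 and Atm with Npat nearly coincide, and Apex1 with Osgep lies farthest apart with the partner higher.

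In the 43 genes with 2 or more passing transcripts, the range of the log2 ratio among them had a median of 0.62. In 8 genes transcripts lay on both sides of 0, which stands for equal exon values and not for the median of all genes. Neither value was computed over all genes. The range was 0.19 among the 3 of Atm (-1.10 to -0.92), 0.38 among the 3 of Parp1 (-1.60 to -1.22) and 0.60 among the 3 of Ercc1 (1.32 to 1.92), so that each of these genes was on 1 side in every transcript. It exceeded 2 in Pms1 and Rad54l2. In Pms1 the full-length transcript ENSMUST00000027267, with 13 exons, had 44.6 labeled and 69.7 unlabeled, whereas ENSMUST00000133358, with 2 exons, had 41.3 and 14.8. In Rad54l2 the transcript with 22 exons had 36.5 and 70.8, and the shorter ENSMUST00000189553 and ENSMUST00000190363, with 2 exons each, had log2 ratios of -1.84 and 1.11. Such short models share exons and introns with the full-length transcript, and how the reads were divided among them is an estimate of the quantification.

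For 92 other repair genes outside the naming rule the same values were computed. Of the 87 that passed the filter, 16 were at least 2-fold above the median of all genes, where 21.1% of all genes were, and 6 at least 2-fold below, where 13.9% were, and the median log2 ratio was -0.27. The 6 were Rbbp8 (CtIP, which starts resection), with 44.6 labeled and 151.9 unlabeled (-1.77), Dna2 (a resection nuclease, -1.72), Rad23b (a lesion recognition factor, -1.60), Rif1 (an antagonist of resection, -1.42), Ddb1 (an adaptor of the UV lesion ligase, -1.41) and Gen1 (a junction resolvase, -1.30). Among the 16 were Ube2t, the ubiquitin conjugase of the Fanconi core complex, with 269 and 55.1 (2.29), Helq, a helicase (102.4 and 35.8, 1.52), Swi5, a cofactor of strand exchange (1001 and 437, 1.20), Faap20, another Fanconi core protein (79.8 and 30.3, 1.40), and Polb, the gap-filling polymerase of base excision repair (66.2 and 29.7, 1.16). Mgmt, Nthl1 and Msh4 had higher ratios still, but unlabeled exon values of only 0.33, 1.97 and 1.04. H2afx, which has no intron signal, and Smug1, Sfr1 and Swsap1, with an unlabeled intron value of 0, did not pass, nor did Msh5, whose exon values were 0.29 and 1.03.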

How the data were processed

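One labeled and one unlabeled library of biological replicate 1 were analysed. After removal of ribosomal reads, the authors aligned the rest to exonic and intronic sequences with STAR 2.5.0 (version from the submitters' processing notes) and quantified them with RSEM. The deposited values are called TPM by the authors. Because either column adds up to 10 times a TPM total, they were treated as a score with no counts, and a minimum planned in TPM was applied as deposited. Depth is unknown. Values were summed per gene over protein-coding transcripts of GENCODE M21 (GRCm38), which held 90.9% of the transcripts. Genes needed a mean exon value above 1 and all values above 0, a filter that a gene could pass through either library. Rates followed the equations of the study on a grid of 4000 points, and the solver was tested on simulated data. Without noise, every degradation rate that was scored came within 1% of the true one. With noise of 0.1 (standard deviation of the natural log), 48.1% came within 2-fold where the study proves a single solution. Among the other compatible values it was 58.2%. Where the solver gave 2 solutions, the one nearer the true rate was scored. With 1 library per pool there was no test: a 2-fold distance from the median is a rule of size. Members and lists were chosen with earlier results of these data known. Genes were named by a rule: in each role the highest and lowest ratio, the highest and lowest level and the highest labeled intron to exon ratio, all genes past 2-fold, those below the filter, and 10 chosen by name; further genes were named after their values were seen. Values of a few genes are not reported here. The tools were pandas 2.3.3, numpy 2.4.6 and scipy 1.17.1 under Python 3.11.15, with figures from matplotlib 3.10.9.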

Additional observations from a re-analysis of the deposited data

How the results depend on the processing

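No paired analysis was possible because there was 1 library per pool and no test, and for the same reason no replicate could be left out. Alternatives were other minimums, a pseudocount of 0.1, subtraction of leakage (0.142 times the unlabeled value), 1 transcript per gene, all biotypes and centring on the mean, and other readings or solutions for half-lives. The median log2 ratio of the repair genes minus that of all genes, -0.04, was 0.0481 with a mean exon value above 10 and 0.0011 with the most highly expressed transcript. Parp1 was the 1 gene 2-fold below the median of all genes; there were 5 with leakage subtracted, 2 with the most highly expressed transcript, 3 with all biotypes and 3 when centred on the mean, Parp1 always among them. With the most highly expressed transcript the median unlabeled intron to exon ratio was 0.0668 and the incompatible share 10.3%, which was 13.1% with a mean exon value above 10. Taking the second library for total RNA gave a median half-life of 38.8 min, beside 43.9 min over all genes. Subtracting leakage gave 18.6 min in place of 12.4 min. The cause of these shifts was not tested. The median over all genes, -0.29, was itself between -0.56 with leakage subtracted and -0.13 for the mean. The number of genes 2-fold above ranged from 7 to 11. Matching counts past 2-fold and incompatible shares over all genes or transcripts were not computed under the alternatives. Of 463 values of the 58 genes under these alternatives, 461 moved by less than 1.5-fold relative to the median of all genes. The others were Pms1, from 0.18 to -0.65 with the most highly expressed transcript, and Fanca, from 0.83 to 0.21 with all biotypes. With other minimums, or with centring on the mean, a gene kept its own ratio and only the centre shifted. That centre lay between -0.42 and -0.13, so values under those settings could not have moved by 1.5-fold. Read depth, and so the error of low genes such as Ogg1, is unknown.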
